A study of Mus musculus with 2 samples.

Results

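The mitochondrial ribosome translates the few proteins that mitochondrial DNA encodes, all of them parts of the respiratory chain and of ATP synthase. Its RNA comes from mitochondrial DNA, but its proteins are encoded in the nucleus, made in the cytosol and imported. The large subunit joins amino acids and the small subunit reads the mRNA, and the heart, which relies on oxidative metabolism, is one of the organs affected when single genes of either subunit are mutated in people. The genes of these proteins were taken here by symbol, Mrpl for the large subunit and Mrps for the small subunit, each followed by a number and at most 1 letter. Of 78 matching mouse symbols, 77 were listed among the 17646 genes of the deposited tables, 48 of the large and 29 of the small subunit. Mrpl33 was not matched to a listed identifier and was not analysed here.

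RNA was sequenced from the heart of mouse embryos at embryonic day 13.5, from 1 wild-type library and 1 library of Srsf10-/- embryos. Both were of the BALB/c strain. Srsf10 encodes an SR-related splicing factor, and the comparison asks how heart transcripts differ when it is lost. The number of embryos in each library, their sex and the construction of the knockout allele are not given in the labels. Since each group was 1 library, replicate spread is unknown and no difference could be tested. The 95% intervals below are exact intervals of the ratio of reads per library read, and they cover counting error only. In bulk hearts, fewer cells of a type and less RNA per cell cannot be told apart.

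The libraries held 39.61 M and 38.89 M uniquely mapped reads, wild type first here and throughout. Srsf10 itself had 5245 and 212 reads, or 35.3 and 1.45 RPKM (reads per kilobase of listed gene length and per M reads), which was 24.3-fold lower in the knockout library (21.2 to 28.0). The 7 cardiomyocyte markers were abundant in both libraries, with Tnnt2 at 2940 and 2305 RPKM, and their summed reads per library read had a ratio of 0.971. Of the markers of other cells, the 4 endothelial genes summed to a ratio of 0.994 and the 4 erythroid genes to 0.934. The 4 fibroblast and cushion mesenchyme markers summed to a ratio of 0.697, the 4 leukocyte markers to 1.34, while the 4 hepatocyte markers summed to 274 and 40 reads. The 4 skeletal muscle markers were split, with Tnni2 at 865 and 3368 reads and Tnnt3 at 151 and 309, but Myod1 at 18 and 2 and Myog at 41 and 18. The 4 Y-linked genes examined had 2943 and 7 reads, so sex and genotype cannot be told apart in these 2 libraries. The part of these differences in the values below was not tested.

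The promoters of the member genes are described first, and none of the motifs below was in all of them. RefSeq promoters, reaching from 250 bases before to 50 bases after the start, were at hand for 68 of the 77 members (GRCm38.p6). Short motifs were searched on both strands, and the motif set was chosen with the expression results known. The ETS motif CCGGAAG, bound by GABPA and its relatives, was in 25 of the 68 (36.8%), against 20.3% of the genes expressed here and 9.93% of all genes with a promoter. The YY1 motif AAGATGGC was in 12 members (17.6%), against 5.32% of expressed genes and 3.19% of all. The core GCATGCGC of the NRF1 motif was in 7 members (10.3%), against 6.18% and 3.05%. The SP1 motif GGGCGG was in 34 of the 68 members (50%), a lower share than the 70.3% of expressed genes, and in 38.2% of all. The TATA motif TATAAA was in 7.35% of members, against 8.58% of expressed genes and 15.7% of all. The ETS and YY1 motifs can share the letters AAG, and 3 members held both the ETS and the YY1 motif. A match is a description of letters and not a site of binding.

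Stretches around a match are printed 5′ to 3′ on the strand of the gene, with the match in capitals and up to 30 bases on each side, ending before the start of the gene. Only stretches free of annotated exons were eligible, which left 9 members with the ETS motif, 1 with the NRF1 core and none with YY1 when the match and its flanks were all exon-free and ahead of the start. Mrpl58, Mrpl52 and Mrps27 are shown because they were among the members lowest in the knockout relative to the wild type, Mrpl22 and Mrpl48 because they carry the same letters with a ratio above 1, and Mrpl10 for the NRF1 core. CTTCCGG is the ETS motif on the opposite strand. The stretch of Mrpl22 also holds the NRF1 core on the opposite strand, GCGCATGC, in lower case.
Mrpl58, chr11:115403705-115403751, plus strand: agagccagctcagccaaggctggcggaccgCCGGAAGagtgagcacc
Mrpl52, chr14:54426832-54426898, plus strand: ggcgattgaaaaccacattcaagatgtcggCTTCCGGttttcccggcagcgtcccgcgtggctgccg
Mrps27, chr13:99344708-99344774, plus strand: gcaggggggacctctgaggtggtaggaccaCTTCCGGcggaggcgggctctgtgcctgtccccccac
Mrpl22, chr11:58171581-58171647, plus strand: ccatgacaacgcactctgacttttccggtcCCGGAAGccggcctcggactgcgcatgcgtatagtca
Mrpl48, chr7:100583131-100583194, minus strand: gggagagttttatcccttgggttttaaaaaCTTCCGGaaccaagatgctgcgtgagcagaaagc
Mrpl10, chr11:97041418-97041485, plus strand: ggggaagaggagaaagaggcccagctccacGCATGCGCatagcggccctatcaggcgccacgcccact

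The members were well expressed, and their order hardly differed between the libraries. Of the 77 members, 76 had at least 1 RPKM in at least 1 library, and each of the 76 did so in both. They were set against 12329 genes that passed the same filter. Of the 77, 66 lay above the median wild-type level of expressed genes, 9.88 RPKM, and 15 were above 49.4 RPKM, the bound of the top 10% of expressed genes. Levels spanned from 3.16 RPKM (Mrpl23) to 183 RPKM (Mrpl12) among the expressed members in the wild type. Across the 77 genes, the log2 levels of the 2 libraries had a Pearson r of 0.992 and a Spearman rho of 0.986, as a description over genes that share these libraries.

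**Figure D1:**
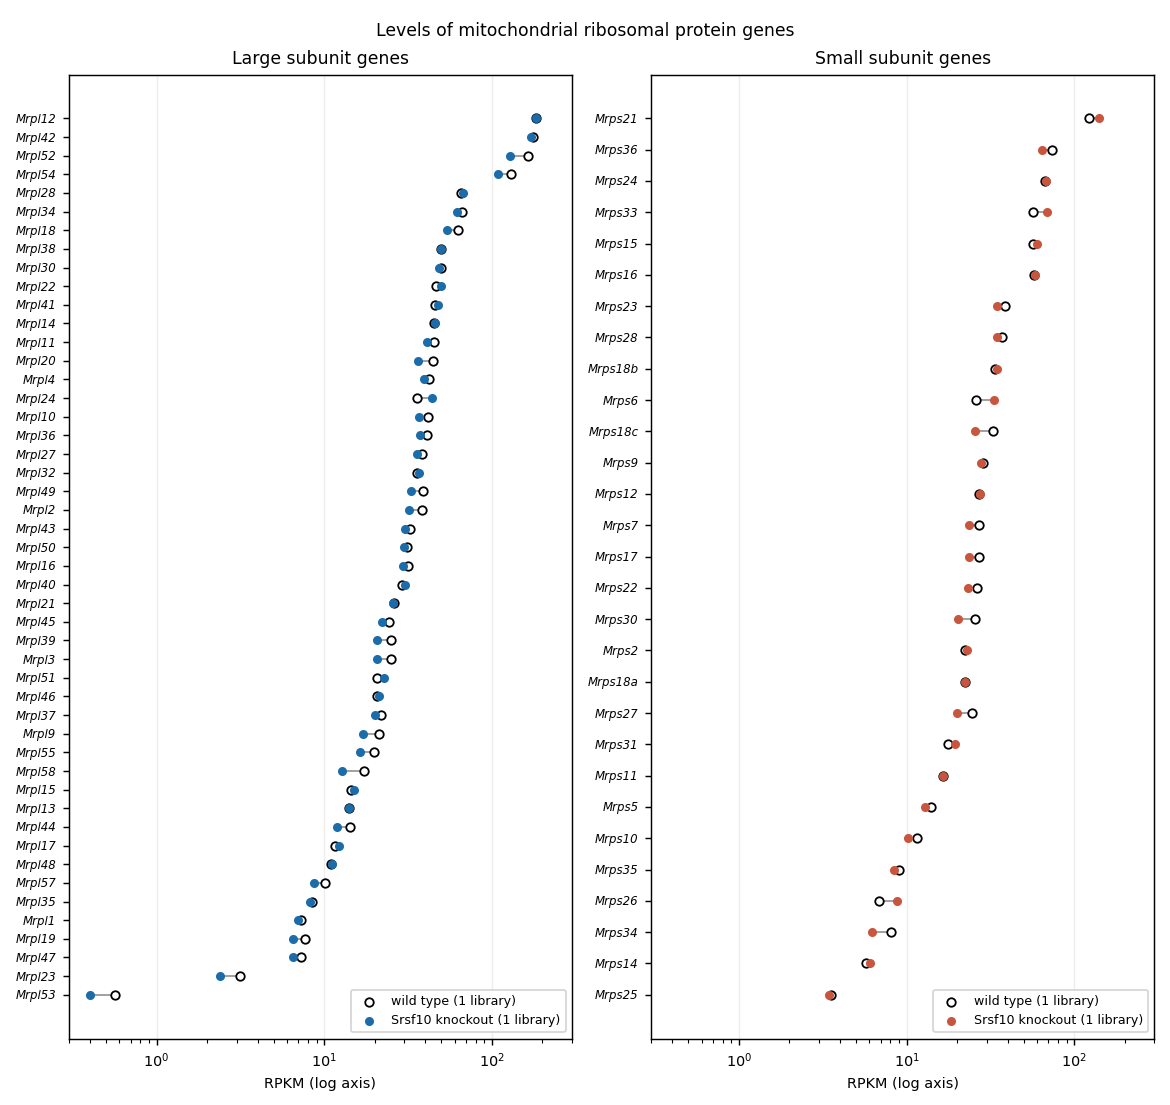
RPKM of each of the 77 members on a log axis, with the wild-type library as open circles and the Srsf10 knockout library as filled circles, for large (left) and small (right) subunit genes. Mrpl12, at 183 and 182 RPKM, is at the top and Mrpl53, at 0.569 and 0.398 RPKM, at the bottom of the large subunit.

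Large subunit genes had median levels of 31.3 and 30.1 RPKM, with interquartile ranges of 16.6 to 45.1 and 14.8 to 44.1. Small subunit genes had medians of 26.4 and 23.6 RPKM, with interquartile ranges of 16.4 to 37.0 and 16.5 to 34.7, so the subunits overlapped over most of their range. Mrpl12, the stalk protein that contacts translation factors, stood first in both libraries at 183 and 182 RPKM (9543 and 9318 reads). Mrpl42, which has no bacterial counterpart, followed at 175 and 171 RPKM. Mrpl52 had 163 and 127 RPKM, and Mrpl54 had 129 and 108 RPKM. These 4 large subunit genes and Mrps21, at 122 and 139 RPKM, were the only members above 100 RPKM in either library.

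Below them in the large subunit came Mrpl28 (65.4 and 67.3 RPKM), Mrpl34 (65.9 and 61.8), Mrpl18 (62.3 and 54.3) and Mrpl38 (49.6 and 49.4). In the small subunit, after Mrps21, stood Mrps36 (73.1 and 64.5 RPKM), Mrps24 (66.7 and 68.2), Mrps33 (56.8 and 68.3), Mrps15 (56.6 and 59.5), Mrps16 (57.5 and 58.5), Mrps23 (38.5 and 34.6) and Mrps28 (37.0 and 34.7). Mrps36 carries a ribosomal name, but its product was later placed in the 2-oxoglutarate dehydrogenase complex. At the low end of the large subunit were Mrpl19 (7.64 and 6.49 RPKM), Mrpl47 (7.24 and 6.47), Mrpl23 (3.16 and 2.38) and Mrpl53, with only 16 and 11 reads. The lowest of the small subunit were Mrps26 (6.86 and 8.72 RPKM), Mrps34 (8.08 and 6.18), Mrps14 (5.73 and 6.04) and Mrps25 (3.52 and 3.45). Of Mrpl53, 81.9% of the 31-base words also occur in another gene, and of Mrps34 and Mrps25, 79.0% and 74.6%. Exons of each also overlap another gene, over 88.0% on the same strand in Mrpl53. In Mrps34 and Mrps25 the opposite-strand overlap was 63.4% and 69.8%. Wild-type reads covered 49.4%, 59.4% and 56.8% of the listed lengths of Mrpl53, Mrps34 and Mrps25. Mrpl19 and Mrpl47 had 1514 and 965 wild-type reads over listed lengths of 5000 and 3364 bases. Of their words, 41.3% and 20.3% are shared with another gene, and their opposite-strand exon overlap was 36% and 24.2%. How shared words bear on these counts was not tested.

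Differences between the libraries were small and more often downward in the knockout. On log2(RPKM + 1), 26 of the 76 expressed members were higher and 50 were lower in the knockout (65.8% lower), where 51.8% of all expressed genes were below 0. The median log2 ratio of the members was -0.09 (interquartile range -0.19 to 0.03), and that of all expressed genes was -0.01. Summed over all 77, reads went from 142691 to 134023, a ratio per library read of 0.957 (0.9497 to 0.964). No member was 1.5-fold higher, where 1.52% of all expressed genes were, and none was 1.5-fold lower, where 1.44% were. At least 1.2-fold, 3 members were higher and 12 lower, where 10.1% and 10.4% of all expressed genes were higher and lower. Counts past a fold are on log2(RPKM + 1), where the pseudocount of 1 shrinks ratios. Mrps33 (1.201), Mrpl44 (0.830) and Mrpl2 (0.833) passed 1.2-fold only as ratios of reads and are not counted. Of the single-gene intervals, 8 lay above 1, where 28% of all expressed genes did, 34 lay below 1, where 31.6% did, and 34 included 1. All 42 intervals off 1 belonged to the 74 members with 500 to 5000 wild-type reads, and among the 7808 expressed genes in that range, a set chosen after the members' values were seen, 26.7% lay above and 32.4% below 1.

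The lower sum was clearer in the large subunit. Of its 47 expressed genes, 12 were higher and 35 lower, with a median log2 ratio of -0.10, and its reads went from 93931 to 86893, a ratio of 0.942 (0.934 to 0.951). Of the 29 small subunit genes, 14 were higher and 15 lower, with a median of -0.02, and reads went from 48760 to 47130, a ratio of 0.985 (0.972 to 0.997). The intervals of the 2 sums do not overlap, but they hold counting error alone. Summed RPKM gave 1937 and 1807 for the large subunit and 924 and 924 for the small subunit. With log2 ratios centred by gene length, the small subunit sum crossed 1, at 1.00032, and the large subunit sum was 0.956.

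**Figure D2:**
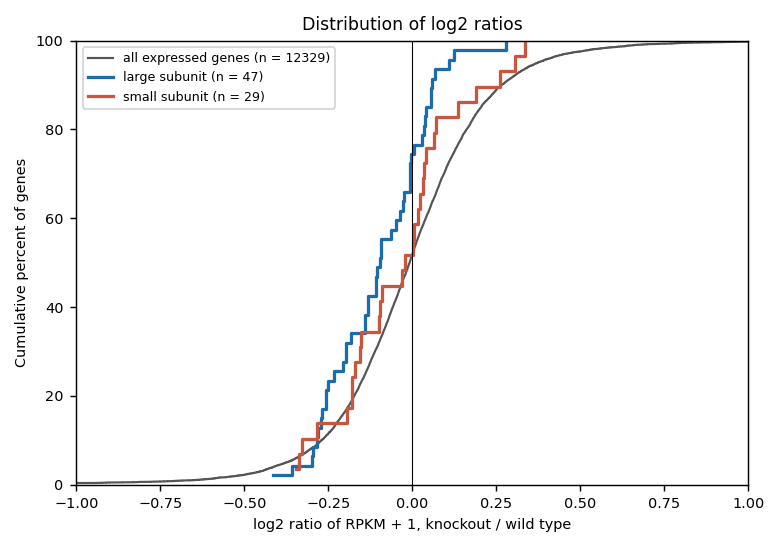
Cumulative percent of genes against the log2 ratio of RPKM + 1, knockout over wild type, for all 12329 expressed genes, the 47 large and the 29 small subunit genes. The large subunit curve lies to the left, with a median of -0.10, and the small subunit median is -0.02.

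Later structural work placed the products of Mrps30 and Mrps18a in the large subunit. With these 2 genes moved and Mrps36 left out, the summed ratios were 0.941 (0.933 to 0.9496) for the large and 0.996 (0.983 to 1.009) for the small subunit. Of the members with a counterpart in the bacterial ribosome, 45 were expressed, 29 of them lower, with a median of -0.06 and a summed ratio of 0.969. Of the other 31, among them the S18 paralogs Mrps18a and Mrps18b, 21 were lower, with a median of -0.11 and a summed ratio of 0.939. Bacterial counterparts were assigned from general knowledge after the ratios were known.

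The 12 members at least 1.2-fold lower were 8 large subunit genes, Mrpl58, Mrpl52, Mrpl23, Mrpl9, Mrpl20, Mrpl55, Mrpl3 and Mrpl39, and 4 small subunit genes, Mrps18c, Mrps34, Mrps30 and Mrps27. Mrpl58, a peptidyl-tRNA hydrolase built into the large subunit that frees stalled ribosomes, had 1780 and 1286 reads, 17.3 and 12.7 RPKM, a ratio of 0.736 (0.684 to 0.791). Mrpl52 had 2666 and 2040 reads, a ratio of 0.779 (0.735 to 0.826). The knockout library was thus lower for the third most abundant member.

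Mrps34, a small subunit protein without a bacterial counterpart, had 603 and 453 reads, a ratio of 0.765 (0.676 to 0.866). Mrps18c had 1069 and 819 reads, a ratio of 0.780 (0.712 to 0.856). Mrps30 had 1606 and 1244 reads, a ratio of 0.789 (0.732 to 0.850). Mrpl23, whose bacterial relative lies at the exit of the peptide tunnel, had only 89 and 66 reads, and its ratio of 0.755 had an interval that included 1 (0.541 to 1.05).

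Mrpl9 had 1392 and 1099 reads, a ratio of 0.804 (0.742 to 0.871). Mrps27, a pentatricopeptide repeat protein, had 1785 and 1427 reads, a ratio of 0.814 (0.759 to 0.874). Mrpl55, Mrpl20, Mrpl3 and Mrpl39 had ratios from 0.815 to 0.823. Apart from that of Mrpl23, the intervals of the 12 lay below 1.

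The 3 members at least 1.2-fold higher were Mrps6, Mrps26 and Mrpl24. Mrps6, the counterpart of bacterial S6, had 1221 and 1525 reads, 25.9 and 33.0 RPKM, a ratio of 1.27 (1.18 to 1.37). Mrps26, which has no bacterial counterpart, had 1163 and 1450 reads, a ratio of 1.27 (1.17 to 1.37). Mrpl24 had 1899 and 2274 reads, a ratio of 1.22 (1.15 to 1.30). Close behind were Mrps33 (2491 and 2938 reads, 1.201), Mrps21 (3451 and 3868 reads, 1.14) and Mrps31 (1067 and 1157 reads, 1.10). Thus 5 of the 6 highest were small subunit genes, where 29 of the 76 expressed members were. The 6 lowest log2 ratios also held small subunit genes, Mrps18c, Mrps34 and Mrps30. Exons of Mrps6 overlap another gene on the same strand over 19.9% of their length, and those of Mrpl24 and Mrps26 one on the opposite strand over 26.3% and 0.184%. Among the lower members, Mrps34 overlaps other genes over 37.0% on the same and 63.4% on the opposite strand, Mrps18c over 23.2% on the same and Mrps27 over 24.2% on the opposite strand. Whether counting used strand is unstated in the sources. Leaving out every member with any such overlap, a choice made after the data were seen, left 45 members. Of these 45, 0 were at least 1.2-fold higher and 5 at least 1.2-fold lower, where 10.1% and 10.4% of all expressed genes were.

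**Figure D3:**
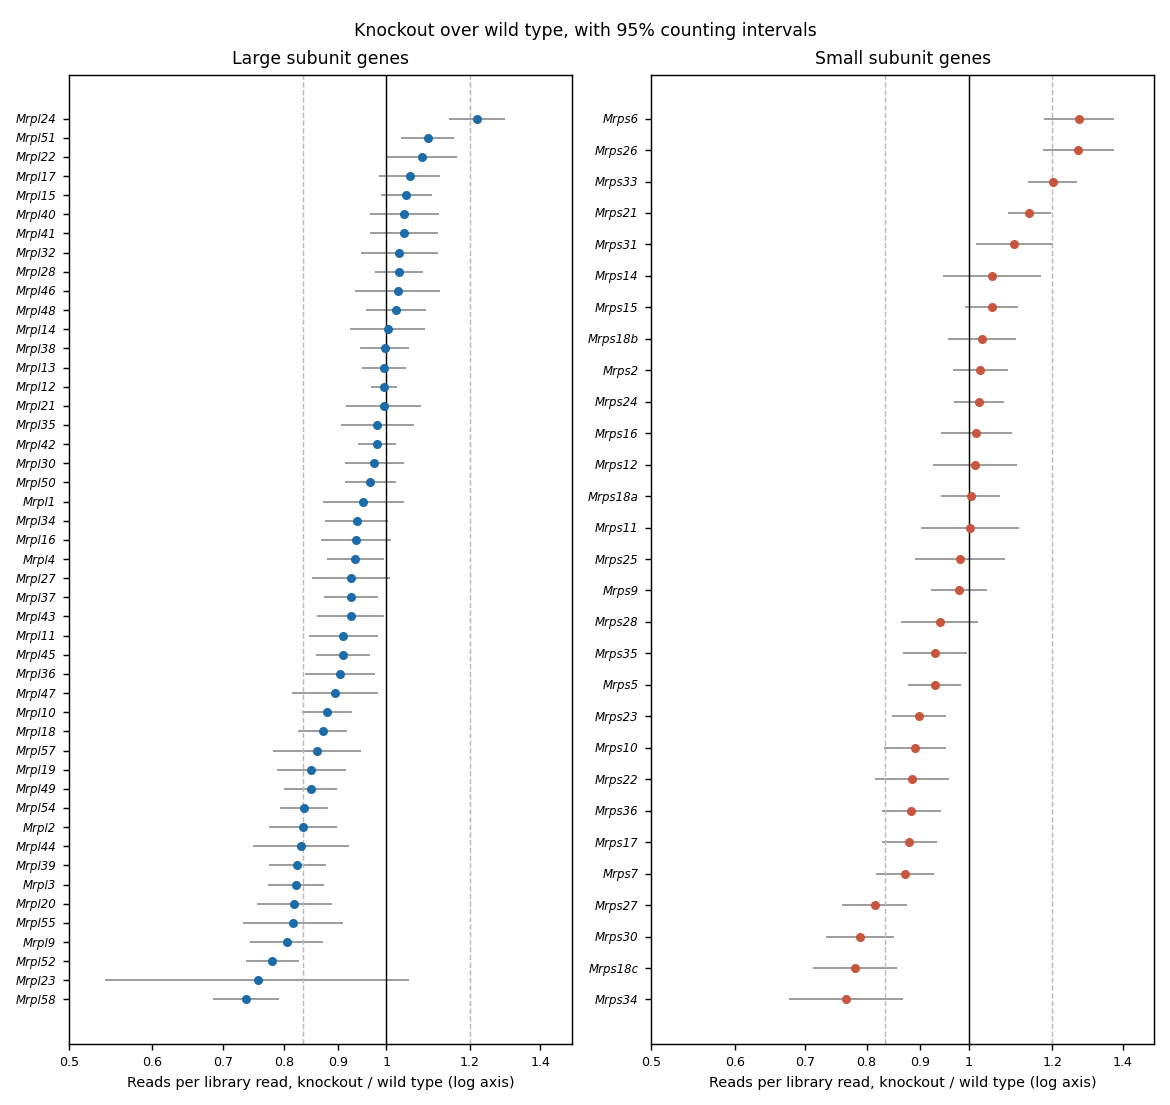
Ratio of reads per library read, knockout over wild type, for each of the 76 expressed members on a log axis, with exact 95% counting intervals, for large (left) and small (right) subunit genes, and dashed lines at a ratio of 1.2 in either direction. Mrpl58 is lowest at 0.736 and Mrps6 and Mrps26 are highest at 1.27.

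Of the 3 mammalian S18 paralogs, Mrps18c was lower in the knockout library, and the other 2 had intervals that included 1. Mrps18c had 32.9 and 25.7 RPKM, while Mrps18b had 33.7 and 34.7 RPKM, a ratio of 1.03 (0.957 to 1.11), and Mrps18a had 22.2 and 22.3 RPKM, a ratio of 1.004 (0.942 to 1.07). The interval of Mrps18c did not overlap the other 2, but these intervals hold counting error alone. Of Mrps18c and Mrps18b, 38.1% and 64.3% of the 31-base words are shared with another gene.

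Some members are known for mutations in human cardiomyopathy, and those named here are a choice and not a complete list. Mrpl3 had 25.01 and 20.5 RPKM, a ratio of 0.821 (0.772 to 0.873). Mrpl44, which holds an RNase III-like fold, had 14.3 and 11.8 RPKM, a ratio of 0.830 (0.747 to 0.921). Mrps22 had 26.4 and 23.3 RPKM, a ratio of 0.884 (0.814 to 0.959). Mrps14 had 5.73 and 6.04 RPKM, a ratio of 1.05 (0.946 to 1.17). Mrpl12 was not chosen as a cardiomyopathy gene. Its product is also reported to contact mitochondrial RNA polymerase, and the gene had a ratio of 0.995 (0.967 to 1.02).

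Srsf10 lies on chromosome 4 in the mouse, as do 4 members. Mrpl20 had 44.6 and 36.5 RPKM, a ratio of 0.818 (0.754 to 0.888), and Mrpl37 had 21.7 and 20.1 RPKM, a ratio of 0.926 (0.873 to 0.981). Mrpl50 had a ratio of 0.966 (0.913 to 1.02) and Mrps15 one of 1.05 (0.993 to 1.11). Their summed reads per library read changed by -4.49%, beside -4.32% over all members.

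Covered length, the percent of a gene's listed length with at least some reads, differed between the libraries in many members. It differed by at least 5 percentage points in 26 of 77 members (33.8%), against 17.5% of expressed genes. Among expressed genes with 500 to 5000 wild-type reads and a listed length up to 7000 bases the share was 12.3%, and with a length up to 2000 bases 13.5%. A difference of at least 10 points was found in 11 members (14.3%), 8 higher and 3 lower in the knockout, against 6.83%, 4.25% and 5.09% of the same 3 sets. These 3 reference sets were chosen after the members' values were seen.

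In Mrpl9, covered length was 51.9% and 79.1%, with fewer reads in the knockout. Mrps33, with more reads in the knockout, went from 66.7% to 91.1%. Mrpl12 went from 82.4% to 96.7% at a read ratio of 0.995, and Mrps18c went from 86.1% to 99.0%. The other members at least 10 points higher were Mrps35 (25.1% and 38.2%), Mrps28 (85.8% and 98.5%), Mrpl15 (80.1% and 90.8%) and Mrps26 (59.6% and 70.1%). The 3 at least 10 points lower were Mrpl23 (72.5% and 42.6%), at 89 and 66 reads, Mrpl19 (78.0% and 65.4%) and Mrps25 (56.8% and 45.9%). Between 5 and 10 points, Mrps36, Mrps10, Mrps7, Mrps6, Mrpl17 and Mrpl58 were higher and Mrpl13, Mrpl47, Mrpl20, Mrpl30, Mrpl40, Mrps18a, Mrps34, Mrps14 and Mrpl44 lower in the knockout. The deposited values do not say which exons or ends were covered. The listed length was the same in both tables for every member.

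**Figure D4:**
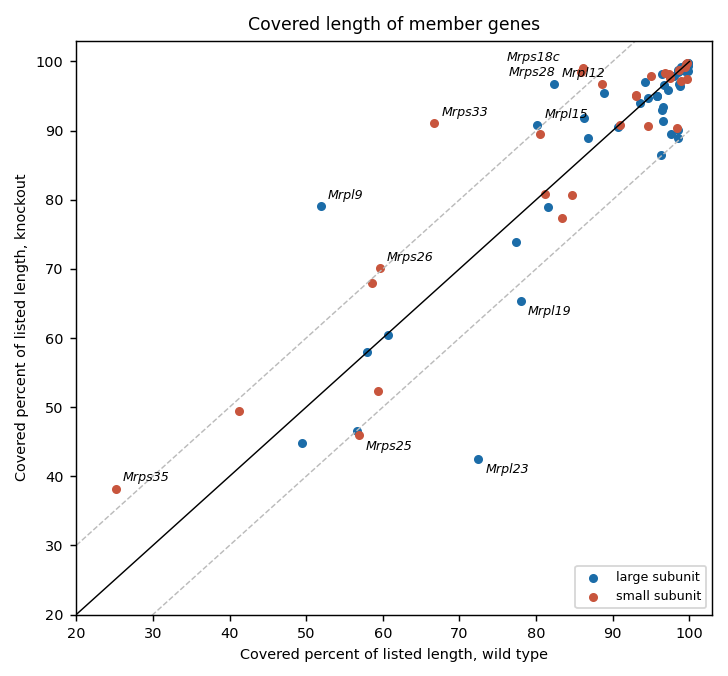
Percent of each member's listed length covered by reads in the wild-type (x axis) and knockout (y axis) library, 1 point per gene, with dashed lines 10 percentage points off the diagonal and the 11 genes beyond them named. Mrpl9 lies farthest above the diagonal (51.9% and 79.1%) and Mrpl23 lies farthest below it (72.5% and 42.6%).

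In 16 members, 20% or more of the 31-base words also occur in another gene, and in 11 of these the exons overlap another gene at the same place, so the words need not mark a copy elsewhere. Besides Mrpl53, Mrps34, Mrps25, Mrps18b and Mrps18c, they are Mrpl27, Mrpl22, Mrps36, Mrpl19, Mrpl24, Mrpl43, Mrpl21, Mrpl41, Mrps33, Mrps21 and Mrpl47. Without the 16, the summed read change of the members was -5.51%, and that of the small subunit was a ratio of 0.969.

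Members often start back to back with another gene. By RefSeq starts, 27 of 68 members (39.7%) had an opposite-strand start at most 1000 bases upstream or up to 200 bases inside, against 21.0% of 9550 expressed protein-coding genes. By the outer ends of GENCODE genes, which was tried first and missed the pair Mrps11 and Mrpl46, it was 23 of 77 (29.9%) against 12.1% of 12076. Mrps11 and Mrpl46 start 42 bases apart, had 16.4 and 16.5 RPKM and 20.7 and 21.2 RPKM, and ratios of 1.002 (0.9001 to 1.12) and 1.03 (0.935 to 1.13). Mrpl43 starts 116 bases from Twnk, the mitochondrial DNA helicase, with ratios of 0.925 for Mrpl43 and 0.787 for Twnk. Mrpl47 starts 308 bases from Ndufb5, a complex I subunit, with ratios of 0.894 and 0.847. Over the 24 pairs with an expressed partner, member and partner were on the same side of 0 in 14 (58.3%). The pairs named above are among these 14. Of the others, Mrpl30 had a ratio of 0.974 and its partner Mitd1 1.30, and Mrpl18 had 0.870 and Tcp1 1.02. How often genes that are not paired fall on the same side was not computed.

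Ratios were also split by motif. Median log2 ratios were -0.05 over the 24 expressed members that hold the ETS motif and -0.06 over the 43 that do not. The 12 with YY1 had -0.03 and the 55 without -0.09. The 7 with the NRF1 core had 0.04 and the 60 without -0.08. Of the factors, Gabpa had a ratio of 1.05 (1.002 to 1.095), Yy1 0.975 (0.923 to 1.03) and Nrf1 0.849 (0.789 to 0.915), with Nrf1 at 9.77 and 8.30 RPKM. Of the 12 listed regulators of mitochondrial biogenesis, 5 were higher and 7 lower, and none differed by 1.2-fold.

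The 5 mitoribosomal proteins with other symbols were all below 0, with a median log2 ratio of -0.22 and a summed ratio of 0.866 (0.842 to 0.890). Aurkaip1, a small subunit protein, had 1812 and 1358 reads, a ratio of 0.763 (0.711 to 0.820). Gadd45gip1, of the large subunit, had 1189 and 901 reads, a ratio of 0.772 (0.707 to 0.842). Ptcd3 had a ratio of 0.855 (0.817 to 0.894), Chchd1, at 75.3 and 70.7 RPKM, 0.939 (0.877 to 1.01) and Dap3 0.965 (0.908 to 1.03).

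Other genes of mitochondrial translation lay on both sides of 0. Of 28 assembly and rRNA modification factors, 12 were higher and 16 lower, with a median of -0.04. Mpv17l2, an assembly factor of the inner membrane, had 600 and 442 reads, a ratio of 0.750 (0.662 to 0.850), and Tfb1m, an rRNA methyltransferase, 498 and 617 reads, a ratio of 1.26 (1.12 to 1.42). Of 17 translation factors, 7 were higher and 10 lower, with a median of -0.03. Guf1, a back-translocating GTPase, had 2041 and 1413 reads, a ratio of 0.705 (0.659 to 0.755), while Oxa1l, the inner membrane insertase, had 63.1 and 70.6 RPKM, a ratio of 1.12 (1.08 to 1.16). Of 20 synthetases and related enzymes, 12 were higher and 8 lower, with a median of 0.03, and Lars2, the leucyl-tRNA synthetase, had 12472 and 8539 reads, a ratio of 0.697 (0.678 to 0.717).

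Of 25 genes of mitochondrial transcription and RNA processing, 9 were higher and 16 lower, with a median of -0.03. Hsd17b10, a subunit of mitochondrial RNase P, had 66.2 and 66.3 RPKM, a ratio of 1.002, and Mterf1b, with 56 and 92 reads and 70.9% of its words shared with another gene, a ratio of 1.67 (1.19 to 2.38). Of 17 genes of import and content, 5 were higher and 12 lower, with a median of -0.12. Vdac1, an outer membrane channel, had 235 and 208 RPKM, a ratio of 0.882 (0.864 to 0.901), and Tomm22, an import receptor, 47.7 and 35.8 RPKM, a ratio of 0.751 (0.701 to 0.804). Cs, the citrate synthase used as a measure of mitochondrial content, had 233 and 234 RPKM and a ratio of 1.004 (0.987 to 1.02).

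**Figure D5:**
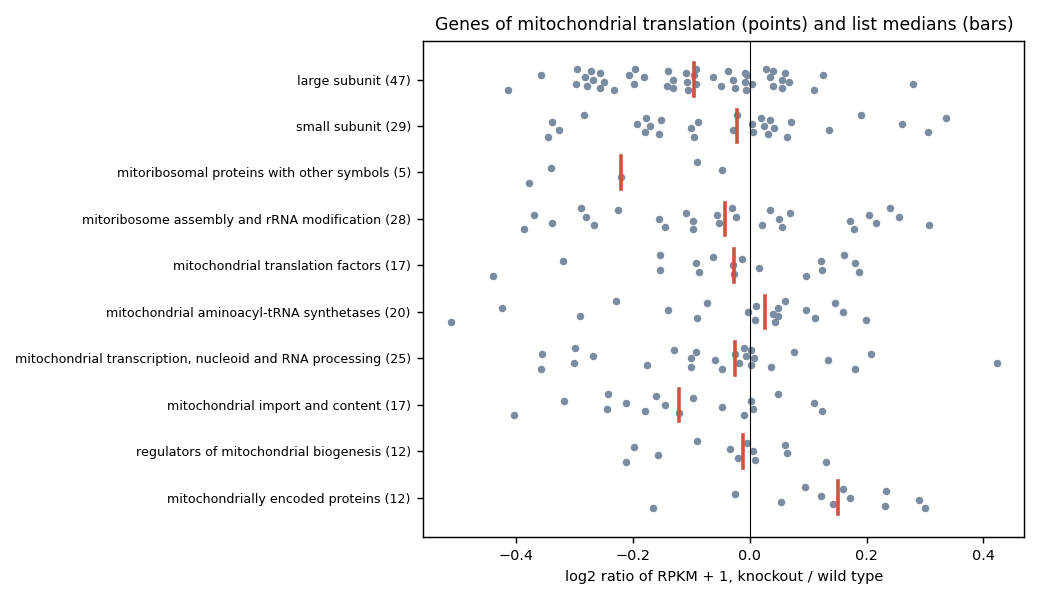
Log2 ratio of RPKM + 1, knockout over wild type, for each expressed gene (points) and the median of each list (bars), for the large and small subunits and 8 lists of related genes, with the number of genes in brackets. List medians reach from -0.22 for the mitoribosomal proteins with other symbols to 0.15 for the mitochondrially encoded proteins.

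The mRNAs that this ribosome translates were on the other side. Of 13 mitochondrially encoded protein genes, 12 were matched in the tables, mt-Nd4l being the other, and 10 were higher and 2 lower, with a median log2 ratio of 0.15 and a summed ratio of 1.102. mt-Nd1, of complex I, had a ratio of 1.23 (1.23 to 1.24), and mt-Co3, of complex IV, 0.983 (0.979 to 0.987). mt-Nd3, also of complex I, had the lowest ratio of the 12, 0.891 (0.877 to 0.906). Of the words of mt-Nd3 and mt-Co3, the 2 lower genes, 98.1% and 99.9% are shared with another gene. The same holds for 100% and 99.5% of the words of mt-Co2 and mt-Atp6, which were higher, with ratios of 1.13 and 1.12. The part of shared words in these ratios was not tested. Proteins of the cytosolic ribosome, taken by symbol after the values were known, had 49 of 75 expressed genes higher, a median of 0.09 and a summed ratio of 1.11, with 26 of the 75 lower. Complex I genes with Nduf symbols, taken the same way, had a summed ratio of 0.982 over 38 genes. The members' summed ratio was 0.957 on the same scale.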

How the data were processed

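The labels describe total RNA and standard Illumina libraries, and the submitters' processing notes name Bowtie 0.12.2 and mm9. No source used here gives the annotation, the filters or the use of strand. The deposited counts are whole numbers of unique reads for each gene, per the file headers. The deposited RPKM equal count over listed length and library total to a relative deviation of 2.14e-14. The authors' coverage score gives the percent of listed length covered (1 value exceeded 100). Symbols were matched for 17196 of 17646 genes by Ensembl identifier.

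The values are log2 ratios of RPKM + 1 for genes with at least 1 RPKM in 1 library, and ratios of reads per library read. The ratios of reads have Clopper-Pearson 95% intervals, computed in Python 3.11.15 with scipy 1.17.1. The code was tested on simulated counts that held counting error only, which says nothing about spread between libraries. The intervals cover counting error only. The reads carry no molecular identifiers, so copies of the same molecule cannot be told apart and the intervals may be too narrow even for that. With 1 library per group, no test could be run. Overlaps, shared 31-base words and GC content came from GENCODE M21 (GRCm38) and promoters from RefSeq (GRCm38.p6).

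The members and lists were chosen with earlier results of these data known. The bacterial classes, motif set, back-to-back definitions, reference sets by coverage or read number, cytosolic ribosomal and Nduf sets, printed stretches and 2 alternatives were chosen after the members' values were seen. A first choice of promoter stretches was replaced because most overlapped annotated exons.

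Members were named by rule: the 8 most and 4 least abundant of each subunit, the 6 highest and 6 lowest ratios, the S18 paralogs, Mrps30, Mrps36, Mrpl3, Mrpl44, Mrps22 and Mrpl12, and members with changed coverage, shared words or a place on chromosome 4. From other lists, the most abundant gene, the one with the largest absolute ratio and up to 4 by role were eligible, and not all are given. Alternatives covered pseudocounts, filters, scaling (edgeR 4.0.16 TMM, DESeq2 1.42.0 size factors), centring and membership.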

Additional observations from a re-analysis of the deposited data

How the results depend on the processing

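Of 144 alternatives over 12 results, 131 stayed within the spread used for that result or within 1.5 times the count, 12 moved further and 1 reversed. For median log2 ratios, the spread ran between the medians of the single-gene interval bounds, -0.19 to 0.03 over all members. The small minus large difference was given a spread of -0.05 to 0.20. Both are wide beside the medians and include 0, so staying within them shows little. Some alternatives could not change a result, such as large subunit results without Mrps36. The median log2 ratio of all members ranged from -0.10 to -0.06, that of the large subunit from -0.10 to -0.08, that of the small subunit from -0.05 to 0.0, and the small minus large difference from 0.05 to 0.09. The reversal was the small subunit's summed ratio centred by gene length (1.00032). The large subunit sum was 0.956 in that setting, 0.953 centred by GC content and 0.954 scaled to reads outside the mitochondrially encoded genes, where the small subunit sum was 0.997. The small subunit sum was 0.969 without members in which 20% or more of the 31-base words also occur in another gene and 0.966 with mitoribosomal proteins that carry other symbols. With a pseudocount of 5, 1 member was at least 1.2-fold higher and 4 lower, and centred by gene length 7 were lower. The shares of all expressed genes past 1.2-fold were not computed in these settings, so these counts have no background beside them. An alternative added after seeing the data left out members whose exons overlap another gene. Of the 45 left, 0 were at least 1.2-fold higher and 5 lower, beside 10.1% and 10.4% of all expressed genes. The large subunit's wild-type median was then 35.9 RPKM. The cause was not tested. Under the library scalings the median of all genes stayed between -0.01 and 0.01. No paired analysis was possible because each group is 1 library, so no library could be left out either. Counts of 89 and 66 reads for Mrpl23 and 16 and 11 for Mrpl53 limit their ratios.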
